A study of Homo sapiens with 12 samples.

Results

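Integrins and the adhesion molecules that work beside them were examined as 10 genes among the 60675 in the count tables, in the diffuse large B-cell lymphoma (DLBCL) lines SUDHL6 and SUDHL16 and in the venetoclax-resistant line derived from each. The genes were taken by symbol. They are the integrin α subunits ITGA3, ITGA4, ITGAL and ITGAX, the β subunits ITGB1, ITGB2 and ITGB7, the integrin counter-receptor ICAM1, the hyaluronan receptor CD44 and the homophilic adhesion receptor CEACAM1. A filter on low counts kept 9 of the 10 in SUDHL6, where ITGAX had too few counts, and all 10 in SUDHL16.

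Venetoclax (ABT-199) inhibits the anti-apoptotic protein BCL2. Total RNA was sequenced from 4 groups of 3 libraries each. SUDHL6-parental and SUDHL16-parental are the lines as purchased, which are sensitive to the drug, and SUDHL6-resistant and SUDHL16-resistant were selected from them by long exposure to rising venetoclax until they grew at 10 or more times their original IC50. The NEBNext Ultra II kit and a HiSeq 4000 were used for SUDHL6, and Illumina's stranded total RNA kit with RiboZero Plus and a NovaSeq 6000 for SUDHL16, so a difference in level between the lines cannot be told apart from a difference between kits. Each resistant group is a single selected line. Per the study's methods, resistant lines were kept under venetoclax, and cells of both kinds went into fresh media for experiments. Whether drug was present when RNA was taken is not stated. Resistance and recent drug exposure therefore cannot be told apart. The labels do not say whether the libraries of a group came from separate cultures, so the p-values measure the spread between libraries, which may be technical.

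An integrin is a pair of 1 α and 1 β chain, and it reaches the cell surface as that pair. In leukocytes ITGAL with ITGB2 forms LFA-1, which binds ICAM1 on the opposing cell. ITGAX with ITGB2 forms a complement receptor of myeloid and some B cells, ITGA4 pairs with ITGB1 to form VLA-4, a receptor for VCAM1 and fibronectin, or with ITGB7 to form the gut-homing receptor for MADCAM1, and ITGA3 pairs with ITGB1 as a laminin receptor. In B cells these molecules govern homing to lymphoid tissue, contact with stroma and the synapse with antigen-presenting cells.

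RefSeq promoter windows of 300 bases (GRCh38.p14, 250 bases before the annotated start and 50 after) were found for 6 of the 10 genes, with 7 windows in all. The windows of ICAM1 and CEACAM1 are shown because both genes were called in both lines, ICAM1 in opposite directions and CEACAM1 in the same one. ITGA3, ITGAL, ITGAX and ITGB2 had no entry. The 250 bases before the start are given 5′ to 3′ on the gene's strand, for ICAM1 from chr19:10270870-10271119 (plus strand) and for CEACAM1 from chr19:42528482-42528731 (minus strand). Capitals mark matches to the motifs searched on both strands, other than the GC box.
ICAM1: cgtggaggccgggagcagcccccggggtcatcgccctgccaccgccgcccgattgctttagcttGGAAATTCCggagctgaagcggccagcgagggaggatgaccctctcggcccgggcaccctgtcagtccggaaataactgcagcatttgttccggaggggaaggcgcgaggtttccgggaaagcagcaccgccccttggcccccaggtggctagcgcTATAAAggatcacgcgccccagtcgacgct
CEACAM1: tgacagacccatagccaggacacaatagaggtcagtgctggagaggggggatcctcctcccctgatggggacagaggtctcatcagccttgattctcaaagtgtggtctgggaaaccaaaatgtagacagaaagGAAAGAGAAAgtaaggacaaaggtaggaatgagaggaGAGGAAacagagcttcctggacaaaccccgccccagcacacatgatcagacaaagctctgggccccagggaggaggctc
In ICAM1 the capitals are a κB palindrome (GGAANTTCC) whose first base is at -186 from the start and a TATA box (TATAAA) at -30. Of 35116 RefSeq promoters, 0.965% held the κB palindrome and 11.5% the TATA box. In CEACAM1 they are an interferon-response type repeat (GAAA, any 2 bases, GAAA) at -116, held by 3.57% of promoters, and an ETS core (GAGGAA) at -79, held by 27.9%. Neither the κB palindrome nor the repeat was found in the windows of CD44, ITGA4, ITGB1 or ITGB7. These are matches of letters and say nothing of binding.

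The libraries held 33992784 to 40885665 counts in SUDHL6 and 4131927 to 22068221 in SUDHL16. The 6 B-cell markers MS4A1, CD79A, CD79B, PAX5, CD22 and BLK had counts in every group, and their summed level was 3922 to 3983 CPM (counts per 1000000 counts) in SUDHL6-parental, 4072 to 4102 in SUDHL6-resistant, 2280 to 3415 in SUDHL16-parental and 3704 to 3917 in SUDHL16-resistant. One library stood apart. CE-26, the second of SUDHL16-parental, had the lowest total (4131927) but the most genes with counts (34938), and its protein-coding share of counts was 55.4%, where the rest of SUDHL16 had 84.3 to 90.2%. Its 7 stromal and epithelial markers summed to 24.5 CPM, where the other SUDHL16-parental libraries reached at most 0.331 and SUDHL16-resistant at most 0.188, with COL1A1 at 0 in the parental group. Its 7 myeloid markers summed to 17.6 CPM, against at most 1.24 in the other parental libraries and 0.612 to 2.34 in the resistant ones, with CD68 at 0 in the parental group. The 7 T-cell markers summed to 18.6 to 31.7 CPM in SUDHL16-parental, highest in CE-26, and to 23.3 to 28.8 in SUDHL16-resistant, with CD5 at 0 in both groups and CD3D in the latter, against 3.10 to 4.02 in SUDHL6. Named after their values were seen, CD3E was called higher in SUDHL16-resistant (2.31 ± 1.88 and 12.4 ± 1.39 CPM) and KRT18 in SUDHL6-resistant (0.272 ± 0.195 and 0.657 ± 0.145 CPM). BLK, likewise named after its values were seen, was called higher in SUDHL16-resistant with and without CE-26. All 6 B-cell markers had a log2 fold change above 0 there (median 0.38, and 0.22 without CE-26). The lowest B-cell marker sum of SUDHL16-parental, 2280 CPM, was that of CE-26, where the median of the group was 3390. The part of these markers in the results was not tested, and the SUDHL16 test of each of the 10 genes is also given without CE-26. In bulk RNA, fewer cells that express a gene and less of its RNA per cell cannot be told apart.

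A gene was called when its edgeR quasi-likelihood test, adjusted by Benjamini-Hochberg over all genes tested in that line, gave p under 0.05 and the change was at least 1.5-fold. In SUDHL6, resistance came with more CEACAM1 and ITGA3 and less ICAM1 and ITGB2, 4 of the 9 members tested, where 8.96% of all 16662 genes tested were called (4.31% higher, 4.65% lower). In SUDHL16 the call was again on 4 members, of 10 tested, with CEACAM1 and ICAM1 higher and ITGAL and ITGA3 lower, where 5.3% of 15708 genes were called (3.2% higher, 2.1% lower). Without CE-26 there were 5, ITGAX being the addition, against 10.0% of 16280 genes (6.73% higher, 3.32% lower). Of the 9 members tested in both lines, 3 were called in both (CEACAM1 higher in both, ICAM1 and ITGA3 in opposite directions), where 0.965% of the 13576 genes tested in both were. The median log2 fold change of the members was 0.096 in SUDHL6 and 0.47 in SUDHL16, beside medians over all genes tested of -4.3e-05 and -0.015.

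**Figure D1:**
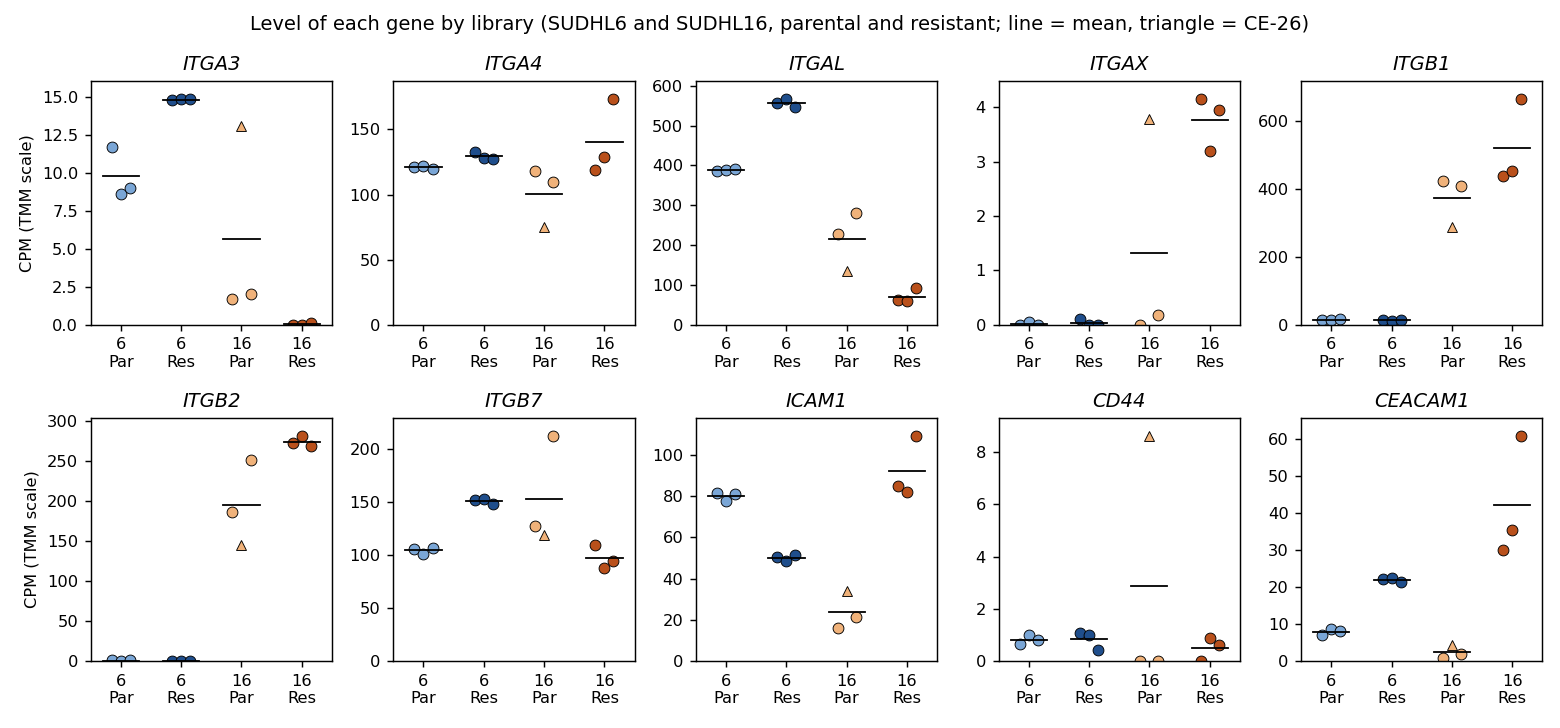
Level of each of the 10 genes in each library, in CPM on the TMM scale, one panel per gene with its own vertical axis starting at 0. Points are libraries, the bar is the mean of the 3, and the triangle is CE-26, which stands far from the other parental libraries in ITGA3, ITGAX and CD44.

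In the values below, the libraries are given in the order CE-7, CE-8 and CE-9 for SUDHL6-parental, CE-10, CE-11 and CE-12 for SUDHL6-resistant, CE-25, CE-26 and CE-27 for SUDHL16-parental and CE-28, CE-29 and CE-30 for SUDHL16-resistant. All levels are CPM scaled by TMM within the line, and changes are log2 fold changes of resistant over parental. Positions are GRCh38, from GENCODE.

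CEACAM1 rose in both resistant lines. Its product (ENSG00000079385, chr19:42507304-42561234, minus strand, 9 exons in the canonical transcript) is an immunoglobulin-like receptor that binds itself on neighbouring cells and recruits the phosphatases SHP-1 and SHP-2. In SUDHL6 it was at 7.11, 8.73 and 8.06 CPM in the parental libraries and at 22.1, 22.5 and 21.3 in the resistant ones. The lowest resistant library was above the highest parental one, and the groups were tight (7.97 ± 0.817 and 21.96 ± 0.641 CPM, mean ± SD, n = 3 each). The log2 fold change was 1.46 (SE 0.079, edgeR adjusted p = 2.2e-08), a 2.76-fold rise. In SUDHL16 the parental libraries were at 1.05, 4.48 and 2.05 CPM and the resistant ones at 30.1, 35.3 and 60.7. Again the groups did not overlap, although the parental level rested on 65 counts in all against 2628 in the resistant libraries. The change was 4.28 (SE 0.56, edgeR adjusted p = 0.0041), and 4.78 without CE-26 (edgeR adjusted p = 6.5e-04). CE-26 held the highest parental value, 2.89 times the mean of the other parental libraries. Of the 13576 genes tested in both lines, 0.273% were called higher in both.

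ICAM1 (ENSG00000090339, chr19:10271093-10286615, plus strand, 7 exons), the ligand of LFA-1 and a classical NF-κB target, moved in opposite directions. In SUDHL6 it fell from 81.4, 77.6 and 81.0 CPM to 50.3, 48.6 and 51.5. Every resistant library was below every parental one, by 0.68 on the log2 scale (log2 fold change -0.68, SE 0.032, edgeR adjusted p = 8.1e-09). In SUDHL16 the parental libraries held 15.9, 34.1 and 21.5 CPM and the resistant ones 85.1, 82.1 and 109. All 3 resistant values lay above all 3 parental ones, and the log2 fold change was 1.98 (SE 0.32, edgeR adjusted p = 0.0104). Without CE-26, which was 1.82 times the mean of the other parental libraries, it was 2.31 (edgeR adjusted p = 0.0011). Among 13 alternative settings the call was lost in 1, without CE-30 (log2 fold change 1.85, edgeR adjusted p = 0.0528). Of the genes tested in both lines, 0.494% were called in opposite directions. The antisense genes LIMASI and ICAM4-AS1, whose annotated spans overlap ICAM1, held at most 77 counts summed over any group, beside 734 to 8697 for ICAM1.

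ITGAL (ENSG00000005844, chr16:30472658-30523567, plus strand, 31 exons), the α chain of LFA-1 and the leading α subunit of SUDHL6, also moved in opposite directions. The SUDHL6 libraries gave 386, 388 and 391 CPM in parental cells and 556, 567 and 547 in resistant cells. The groups stood far apart for their spread, with a log2 fold change of 0.52 (SE 0.018, edgeR adjusted p = 4.7e-10), but the 1.43-fold difference was under the 1.5-fold limit, so it was not called. In SUDHL16 the level was 229, 136 and 280 CPM in parental libraries and 62.6, 58.6 and 91.3 in resistant ones. The highest resistant library was below the lowest parental one, which was CE-26. The decrease was -1.60 on the log2 scale (SE 0.34, edgeR adjusted p = 0.0310), and without CE-26 it was -1.84 (edgeR adjusted p = 0.0029). Leaving out any 1 of the other 5 SUDHL16 libraries kept the direction but lost the call, with log2 fold changes from -1.82 to -1.36 and edgeR adjusted p from 0.0908 to 0.171.

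ITGB2 (ENSG00000160255, chr21:44885953-44931989, minus strand, 16 exons), the β chain shared by LFA-1 and the ITGAX receptor, was at a very low level in SUDHL6. The parental libraries held 1.17, 0.767 and 1.20 CPM and the resistant ones 0.597, 0.470 and 0.523. These rest on 115 and 62 counts in all, the groups did not overlap, and the log2 fold change was -0.98 (SE 0.27, edgeR adjusted p = 0.0130). The call was lost without CE-7 (edgeR adjusted p = 0.0503) and without CE-9 (edgeR adjusted p = 0.0591). In SUDHL16 the gene was abundant, at 186, 146 and 252 CPM in parental and 272, 281 and 268 in resistant libraries. All resistant values were above the parental ones, but the change did not pass the test (log2 fold change 0.49, 95% interval -0.14 to 1.12, edgeR adjusted p = 0.386), nor without CE-26 (0.33, edgeR adjusted p = 0.426). The antisense gene ITGB2-AS1 lies within ITGB2 and held 918 counts in SUDHL16-parental and 1762 in SUDHL16-resistant. Whether the counting used strand is not given in the sources used here, so reads of the pair cannot be told apart, and the same holds for the other overlapping genes named here.

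ITGAX (ENSG00000140678, chr16:31355134-31382999, plus strand, 30 exons), also known as CD11c, was near 0 in SUDHL6, with 2 counts over the parental libraries and 4 over the resistant ones. In SUDHL16 it was at 0, 3.79 and 0.186 CPM in parental libraries and 4.15, 3.20 and 3.96 in resistant ones. The groups overlapped only through CE-26, which was 40.7 times the mean of CE-25 and CE-27. With all 6 libraries the test was not passed (log2 fold change 1.85, edgeR adjusted p = 0.562). Without CE-26 it was passed (log2 fold change 5.31, edgeR adjusted p = 0.0108), on 3 parental and 223 resistant counts. That is 42.7 times the parental level, with a 95% counting interval of 14.4 to 208. A count of 0 in CE-25 allows a level up to 0.165 CPM, and these intervals and limits cover counting error only. Beside this, the 7 myeloid markers summed to 17.6 CPM in CE-26 and to between 0.612 and 2.34 CPM in the resistant libraries, with LYZ, CSF1R, FCGR1A and MPO at 0 in the latter. The other 3 had counts in the resistant libraries, at means under 1 CPM. Without CE-26, 1 of the 7 was tested, and it rose with resistance (log2 fold change 7.05) without being called.

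ITGA3 (ENSG00000005884, chr17:50055968-50090481, plus strand, 26 exons), the α chain of the laminin receptor, moved up in SUDHL6 and to almost nothing in SUDHL16. In SUDHL6 the parental libraries held 11.7, 8.59 and 8.996 CPM and the resistant ones 14.7, 14.8 and 14.8. The groups did not overlap, with a log2 fold change of 0.60 (SE 0.10, edgeR adjusted p = 5.0e-04). That is 1.52-fold, just past the limit, and without CE-8 or CE-9 it was 0.52 or 0.54 on the log2 scale, below it. In SUDHL16 the parental libraries held 1.71, 13.1 and 2.05 CPM and the resistant ones 0, 0 and 0.0851. Only 2 counts were found over the resistant libraries, against 102 in the parental ones and 64 without CE-26. That library was 6.97 times the mean of the other parental libraries. It had counts in the most genes (34938), with stromal and epithelial markers among them. The ratio of parental to resistant was 81.9 (95% counting interval 22.1 to 686) with CE-26 and 55.8 (14.8 to 470) without it. The edgeR adjusted p was 0.0273 with and 0.0186 without CE-26, and it was 0.107 to 0.140 when any 1 resistant library was left out. A count of 0 allows up to 0.201 CPM in CE-28 and 0.141 in CE-29.

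ITGB1 (ENSG00000150093, chr10:32887273-33005792, minus strand, 16 exons), the common partner of ITGA3 and ITGA4, differed far more between the lines than within them. It was at 13.95, 13.8 and 15.6 CPM in SUDHL6-parental and 13.4, 11.4 and 12.9 in SUDHL6-resistant libraries. The resistant values lay below the parental ones without passing the test (log2 fold change -0.20, 95% interval -0.38 to -0.024, edgeR adjusted p = 0.0722). In SUDHL16 it was at 423, 288 and 407 CPM in parental and 439, 453 and 664 in resistant libraries. The groups again did not overlap and again the test was not passed (log2 fold change 0.47, 95% interval -0.22 to 1.17, edgeR adjusted p = 0.456), nor was it without CE-26 (0.33, edgeR adjusted p = 0.495).

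ITGA4 (ENSG00000115232, chr2:181457202-181538940, plus strand, 28 exons), the α chain of VLA-4, varied little between libraries in SUDHL6. SUDHL6-parental libraries held 121, 122 and 120 CPM and SUDHL6-resistant ones 132, 128 and 127. The difference passed the test at a small size (log2 fold change 0.096, SE 0.025, edgeR adjusted p = 0.0090). SUDHL16-parental libraries held 118, 74.7 and 110 CPM and SUDHL16-resistant ones 119, 129 and 173. There the lowest resistant library was just above the highest parental one, and the test was not passed (log2 fold change 0.47, 95% interval -0.15 to 1.10, edgeR adjusted p = 0.399), with or without CE-26 (0.31 without it, edgeR adjusted p = 0.492). The gene CERKL overlaps the end of ITGA4 on the other strand. It had 0 counts in SUDHL16-parental and 85 in SUDHL16-resistant, beside 8582 for ITGA4 there.

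ITGB7 (ENSG00000139626, chr12:53191323-53207282, minus strand, 16 exons), which pairs with ITGA4 for homing to the gut, was at 106, 101 and 107 CPM in SUDHL6-parental and 151, 153 and 148 in SUDHL6-resistant libraries. The groups were well apart (log2 fold change 0.53, SE 0.028, edgeR adjusted p = 1.8e-08), at 1.44-fold under the limit for a call. In SUDHL16 it was at 127, 119 and 212 CPM in parental and 109, 87.4 and 94.8 in resistant libraries. The resistant values were all lower, but CE-27 stood well above the other parental libraries and the test was not passed (log2 fold change -0.65, 95% interval -1.31 to 6.3e-04, edgeR adjusted p = 0.262). Leaving out CE-26 gave -0.79 (edgeR adjusted p = 0.105) and leaving out CE-27 gave -0.33 (edgeR adjusted p = 0.667). The protein-coding gene ZNF740 overlaps the end of ITGB7 on the other strand. It had 9214 counts in SUDHL6-parental and 10853 in SUDHL6-resistant, beside 11351 and 17639 for ITGB7. In SUDHL16 it had 4056 and 7562, beside 6068 and 5716 for ITGB7. Reads from the shared stretch cannot be told apart.

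CD44 (ENSG00000026508, chr11:35138882-35232402, plus strand, 18 exons), the hyaluronan receptor of activated and memory lymphocytes, was near the detection limit in both lines. In SUDHL6 it was at 0.676, 1.003 and 0.811 CPM in parental and 1.07, 1.02 and 0.441 in resistant libraries. The groups overlapped, and no change was detectable at this depth (log2 fold change 0.031, 95% interval -0.68 to 0.74, edgeR adjusted p = 0.956). In SUDHL16 it was at 0, 8.61 and 0 CPM in parental and 0, 0.894 and 0.638 in resistant libraries. All 25 parental counts came from CE-26, the library with the most genes with counts (34938) and 24.5 CPM of stromal and epithelial markers. With it the fitted change was -2.31 on the log2 scale (edgeR adjusted p = 0.628), and without it the sign was opposite, with 0 parental and 34 resistant counts, which is at least 6.50-fold higher when 3 counts over the group are taken as the floor (edgeR adjusted p = 0.175). A count of 0 in CE-28 allows up to 0.201 CPM.

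**Figure D2:**
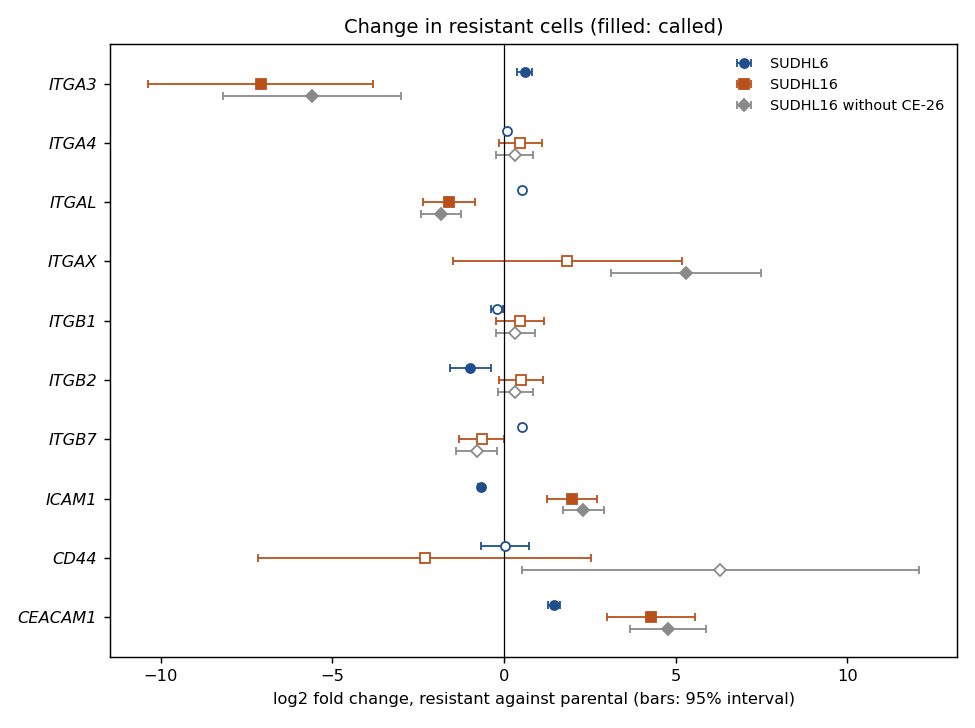
Change of each gene in resistant against parental cells (horizontal axis, log2 fold change, with 95% intervals) for SUDHL6 and SUDHL16, the latter also with CE-26 left out. Filled symbols are called. With all libraries, CEACAM1 and ITGA4 were to the right of 0 in both lines. ICAM1, ITGAL, ITGA3, ITGB1, ITGB2, ITGB7 and CD44 lay on opposite sides of 0. The SUDHL6 intervals were mostly too narrow to show beside their symbols.

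Counted by overlap, the SUDHL6-resistant libraries lay wholly above the parental ones in 5 of the 9 members tested and wholly below in 3, where 23.1% and 24.8% of all genes tested did so (47.9% in either direction). In SUDHL16 it was 5 above and 3 below of 10, against 14.6% and 11.9% (26.6% in all). Without CE-26 it was 6 and 3, against 22.4% and 19.8% (42.2% in all). At an edgeR adjusted p under 0.05 of any size, 7 of 9 members passed in SUDHL6, where 37.3% of all genes did. The lines differed in spread, with a common biological coefficient of variation of 0.0516 for SUDHL6 against 0.468 for SUDHL16 (0.339 when CE-26 is left out). In one fit of all 12 libraries, which gives both lines the same spread, none of the SUDHL6 members was called.

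Levels of different genes can be set side by side only per length, and they are given here as CPM per kilobase (kb) of annotated exon. In SUDHL6-parental, ITGAL led at 39.4 ± 0.284 CPM per kb (SD, n = 3), ahead of ITGB7 at 23.4 ± 0.758 and ICAM1 at 23.2 ± 0.597, which did not differ beyond their spread. ITGA4 followed at 11.4 ± 0.116. The others were far lower, with CEACAM1 at 1.44, ITGA3 at 0.995 and ITGB1 at 0.992, the last pair within their spread, and then ITGB2 at 0.144, CD44 at 0.0831 and ITGAX at 0.00278. SUDHL16-parental had a different order. There ITGB7 (34.3 ± 11.6), ITGB2 (26.7 ± 7.32), ITGB1 (25.6 ± 5.06) and ITGAL (21.8 ± 7.43) overlapped in their spread, followed by ITGA4 at 9.45 ± 2.15 and ICAM1 at 6.91 ± 2.70, with the remaining 4 genes below 1 CPM per kb. These parental means include CE-26. In SUDHL16-resistant, ITGB2 (37.5 ± 0.895) and ITGB1 (35.6 ± 8.65) led, ICAM1 (26.7 ± 4.31) and ITGB7 (21.8 ± 2.50) came next, and ITGAL at 7.18 ± 1.81 had dropped beside CEACAM1 at 7.61 ± 2.97. The length used matters for this order. On the bases of the canonical transcript alone, ITGB1 led in both SUDHL16 groups, at 99.8 and 139 CPM per kb.

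**Figure D3:**
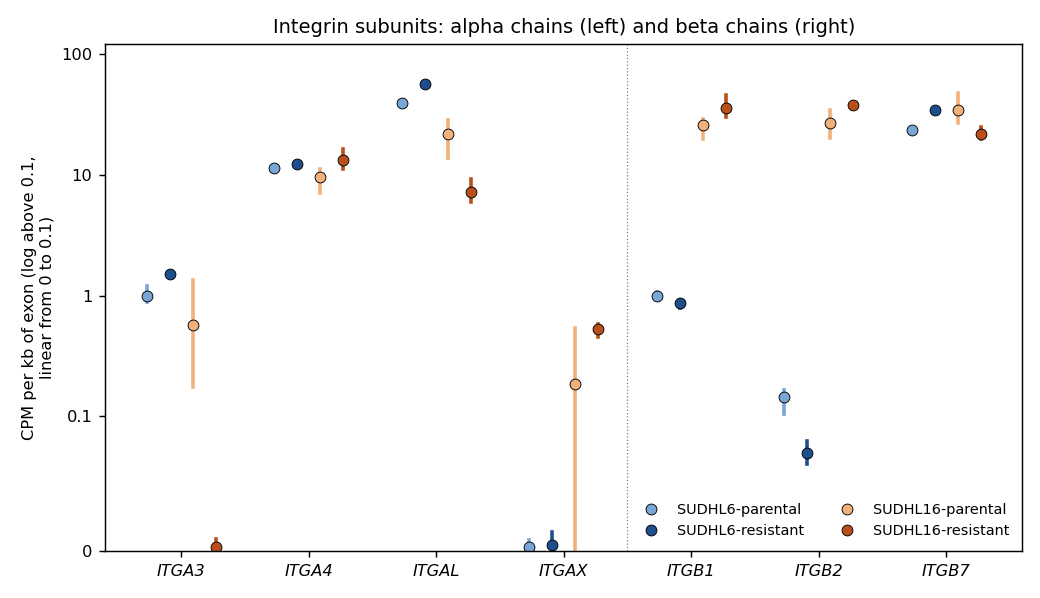
Level of the 7 integrin subunits in CPM per kb of exon, on an axis that is linear up to 0.1 and logarithmic above. Points are means of 3 libraries and bars run from the lowest to the highest library. ITGB1 and ITGB2 reach at most 1.07 in any SUDHL6 library and lie between 19.8 and 45.6 in SUDHL16.

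Because the chains work in pairs, the ratio of α to β, per kb of exon within a library, was also taken. For LFA-1 (ITGAL over ITGB2) it was 241 to 374 in SUDHL6-parental and 689 to 891 in SUDHL6-resistant libraries, so ITGAL transcripts far outnumbered those of ITGB2, and more so in resistant cells. These ratios rest on 115 and 62 ITGB2 counts in all, and the ITGB2 call was lost without CE-7 or CE-9. In SUDHL16 the ratio was 0.689 to 0.909 in parental libraries and 0.154 to 0.252 in resistant ones. For ITGAX over ITGB2 the ranges overlapped in both lines, at 0 to 0.0794 and 0 to 0.172 in SUDHL6 and at 0 to 0.0268, highest in CE-26, and 0.0117 to 0.0157 in SUDHL16. The SUDHL6 values rest on 2 parental and 4 resistant ITGAX counts. For VLA-4 (ITGA4 over ITGB1) the ratio was 10.5 to 12.1 and then 13.5 to 15.3 in SUDHL6, and its ranges overlapped in SUDHL16-parental (0.354 to 0.380) and SUDHL16-resistant libraries (0.357 to 0.388), with CE-26 at the lower end of the first. The ratio of ITGA4 to ITGB7 went from 0.468 to 0.508 down to 0.351 to 0.365 in SUDHL6, and from 0.216 to 0.387 up to 0.455 to 0.764 in SUDHL16. Parental and resistant ranges did not overlap in LFA-1, ITGA4 over ITGB7 or ITGA3 over ITGB1 in either line, nor in ITGA4 over ITGB1 in SUDHL6. How often ratios of other gene pairs do so was not counted. For ITGA3 over ITGB1 the ratio was 0.855 to 1.24 and then 1.63 to 1.93 in SUDHL6, against 0.00600 to 0.0674 and at most 0.000190 in SUDHL16. The ratios depend on the length used. On the canonical transcript the SUDHL6-parental ratio of LFA-1 was 178 to 276 and the SUDHL16-parental one 0.510 to 0.672, that of ITGA4 over ITGB1 was 4.22 to 4.90 and 0.143 to 0.153, and that of ITGA3 over ITGB1 was 0.440 to 0.640 and 0.00309 to 0.0347. RNA ratios are not amounts of surface receptor.

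Whether the change with resistance differed between the lines was tested by the interaction term of a joint edgeR fit to the 12 libraries. ICAM1, CEACAM1 and ITGB2 changed more towards higher levels in SUDHL16, and ITGA3, ITGAL and ITGB7 more towards lower levels, 6 of the 10 members, where 7.16% of 19621 genes passed at an adjusted p under 0.05 (4.34% higher, 2.81% lower). The difference in log2 fold change (SUDHL16 minus SUDHL6) was 2.72 for ICAM1 (SE 0.29, edgeR adjusted p = 1.7e-04), 2.94 for CEACAM1 (SE 0.52, edgeR adjusted p = 0.0047) and 1.496 for ITGB2 (SE 0.37, edgeR adjusted p = 0.0296). It was -7.46 for ITGA3 (SE 1.19, edgeR adjusted p = 0.0026), a value that depends on the prior count since the gene was nearly at 0, -2.11 for ITGAL (SE 0.39, edgeR adjusted p = 0.0065) and -1.16 for ITGB7 (SE 0.31, edgeR adjusted p = 0.0421). CEACAM1 thus rose in both lines but more steeply in SUDHL16. The calls on ITGB2 and ITGB7 were lost in 10 and 12 of 14 alternative settings, while those on the other 4 were kept in all 14. Without CE-26 the same 6 genes passed, where 14.0% of all genes did (8.15% higher, 5.83% lower). ITGA4 (0.40, 95% interval -0.27 to 1.07), ITGB1 (0.70, 95% interval 2.2e-04 to 1.40, edgeR adjusted p = 0.229), ITGAX and CD44 did not pass. Line, kit and platform cannot be told apart in these differences.

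**Figure D4:**
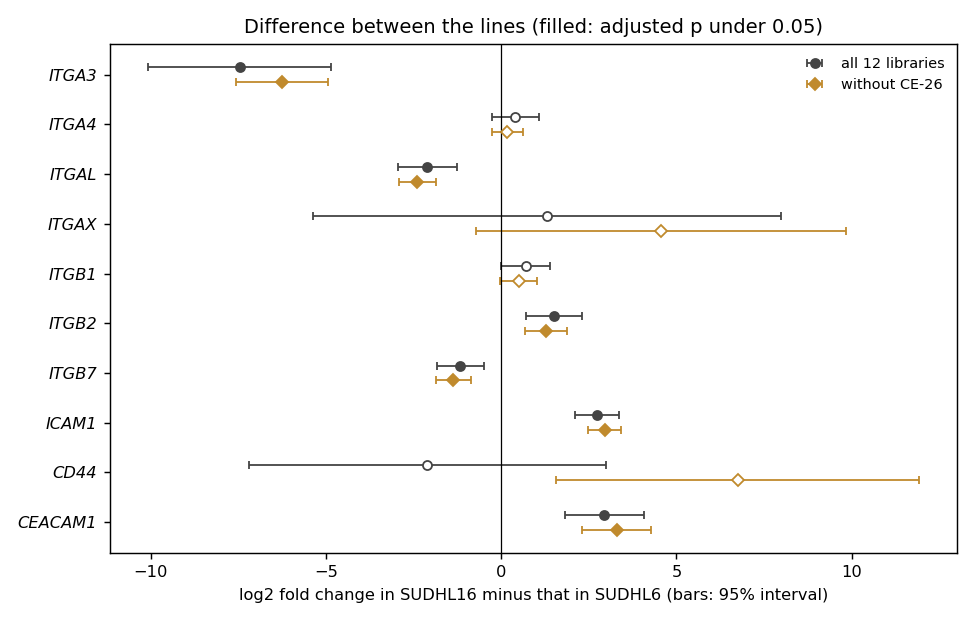
Change with resistance in SUDHL16 minus that in SUDHL6 for each gene (horizontal axis, difference in log2 fold change, with 95% intervals), with all 12 libraries and without CE-26. Filled symbols passed at an edgeR adjusted p under 0.05, and they are the same 6 genes in both fits.

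The wider adhesion machinery was read through lists of related genes. The counts of calls below stand beside shares over all genes tested of 4.31% higher and 4.65% lower in SUDHL6, 3.2% and 2.1% in SUDHL16, and 6.73% and 3.32% in SUDHL16 without CE-26. The 11 genes outside the 10 members that are named below as called in SUDHL16 with all 6 libraries were also called, in the same direction, without CE-26 (edgeR adjusted p from 5.9e-04 to 0.0290). Of 18 integrin α subunits, 11 were tested in SUDHL6 and 4 were called, all higher: ITGA3, and ITGA2, ITGA7 and ITGA10 at means under 3 CPM, which are named after their values were seen. The median log2 fold change of the 11 was 0.60. In SUDHL16, 10 were tested and 1 was called higher (ITGAD, chosen here after its values were seen), with ITGA3 and ITGAL lower. ITGAD, a neighbour of ITGAX on chromosome 16 and another partner of ITGB2, had no counts in SUDHL16-parental, CE-26 included, and was at 1.79 ± 1.07 CPM (SD, n = 3) in SUDHL16-resistant (edgeR adjusted p = 0.0388). Without CE-26, ITGAE, the partner of ITGB7 in mucosal lymphocytes, also passed and is likewise named after its values were seen, rising from a mean of 3.84 CPM in all parental libraries to 19.3 in the resistant ones (log2 fold change without CE-26 1.84, edgeR adjusted p = 0.0183). Of the 8 β subunits 5 were tested in each line, and ITGB2 in SUDHL6 was the single call, with or without CE-26.

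Among 22 counter-receptors and matrix ligands, 13 were tested in SUDHL6 with ICAM1 and LAMA5 called lower, and 10 in SUDHL16 with ICAM1, ICAM3 and LAMA5 called higher, the same 3 without CE-26. LAMA5, the α chain of laminins in basement membranes that ITGA3 binds, moved in the same directions as ICAM1. It fell from 24.6 ± 0.358 to 10.9 ± 0.778 CPM in SUDHL6 (log2 fold change -1.17, edgeR adjusted p = 3.8e-08) and rose from 18.95 ± 7.11 to 164 ± 55.7 in SUDHL16 (log2 fold change 3.14, edgeR adjusted p = 0.0033). ICAM3, a further LFA-1 ligand of leukocytes, was at 25.03 ± 4.72 CPM in SUDHL16-parental and 57.5 ± 11.7 in SUDHL16-resistant (log2 fold change 1.21, edgeR adjusted p = 0.0338). In SUDHL6 it did not pass (94.5 ± 3.75 and 89.7 ± 1.26 CPM). The list's median log2 fold change was -0.13 in SUDHL6 and -0.47 in SUDHL16, the latter 1.02 without CE-26.

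Of 36 genes of integrin activation and focal adhesion, 29 were tested in SUDHL6 with 2 higher and 2 lower, and 31 in SUDHL16 with 5 higher and none lower (1 lower without CE-26, the adaptor SKAP2, named after its values were seen). RASGRP2, the exchange factor that loads the integrin activator RAP1, fell in SUDHL6 from 41.9 ± 0.765 to 16.6 ± 1.04 CPM (log2 fold change -1.34, edgeR adjusted p = 2.1e-09) and rose in SUDHL16 from 16.04 ± 4.04 to 47.1 ± 10.4 (log2 fold change 1.58, edgeR adjusted p = 0.0177). VCL and ZYX, which link adhesions to actin, rose in SUDHL6, VCL from 101 ± 2.79 to 184 ± 2.39 CPM and ZYX from 4.73 ± 0.245 to 9.56 ± 1.11. BCAR1, a docking protein of the same complexes, fell there from 6.63 ± 0.630 to 4.09 ± 0.396 CPM. In SUDHL16 the rises were in PXN, the scaffold paxillin, from 39.0 ± 7.40 to 187 ± 27.9 CPM (log2 fold change 2.26, edgeR adjusted p = 0.0023), in CIB1, an integrin-tail binding protein, from 7.07 ± 0.735 to 44.9 ± 4.03 (log2 fold change 2.66, edgeR adjusted p = 9.8e-04), and in the adaptor CRK from 23.005 ± 4.42 to 49.3 ± 5.08. FYB1, the other call, had no counts in SUDHL16-parental and is named after its values were seen. The list's median log2 fold change was 0.060 in SUDHL6 and 0.42 in SUDHL16.

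Among 23 ligands and partners of CD44, RDX was lower in both resistant lines. It encodes radixin, which ties CD44 to the actin cortex, and it fell from 19.3 ± 0.472 to 5.84 ± 0.390 CPM in SUDHL6 (log2 fold change -1.73, edgeR adjusted p = 3.4e-09) and from 86.0 ± 11.4 to 20.1 ± 3.29 in SUDHL16 (log2 fold change -2.10, edgeR adjusted p = 0.0022). SRGN, the proteoglycan serglycin, fell in SUDHL16 from 67.9 ± 15.8 to 2.23 ± 2.11 CPM (log2 fold change -4.89, edgeR adjusted p = 0.0212). In SUDHL6, ANK3 fell from 43.1 ± 2.28 to 19.3 ± 1.90 CPM, and the protease MMP14 rose from 12.6 ± 0.525 to 20.5 ± 0.860. LGALS9, named after its values were seen, was the other call, from 0.385 ± 0.0520 to 1.0 ± 0.135 CPM. In all, 2 of 16 tested were higher and 2 lower in SUDHL6, and 0 and 2 of 12 in SUDHL16, with list medians of -0.021 and -0.57. Without CE-26 the SUDHL16 counts were 2 and 2, the higher ones being LGALS9 and ANK1, named after their values were seen, and the median was -0.22. Of 15 CEACAM relatives and partners, 5 were tested in each line. PTPN6, the phosphatase SHP-1 that CEACAM1 recruits, fell in SUDHL6 from 87.0 ± 3.78 to 54.2 ± 3.81 CPM (log2 fold change -0.68, edgeR adjusted p = 2.1e-07). In SUDHL16 it did not pass (67.1 ± 18.3 and 84.9 ± 14.1 CPM, log2 fold change 0.34). HAVCR2, the inhibitory receptor TIM-3, named after its values were seen, was also lower in SUDHL6, at 2.09 ± 0.284 and 0.820 ± 0.0904 CPM. CEACAM1 was the one call of this list in SUDHL16, with or without CE-26. Of 28 other leukocyte adhesion molecules 1 of 19 tested was called in SUDHL6 (CD82, lower, named after its values were seen) and 1 of 16 in SUDHL16, the tetraspanin CD53, which fell from 97.2 ± 5.88 to 47.5 ± 7.36 CPM (log2 fold change -1.03, edgeR adjusted p = 0.0324). Without CE-26 there were 3 calls of 16, with CD58 and PECAM1 higher beside CD53 lower, the first pair named after their values were seen.

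Genes around the members were counted to see whether a change was shared by its neighbourhood. Within 1 Mb of CEACAM1, 25 other protein-coding genes were tested in SUDHL6, of which 2 were called higher and none lower. In SUDHL16 none of 22 was called with all libraries, and 2 of 23 were called higher without CE-26. Around ICAM1, 2 of 50 were called higher and 1 lower in SUDHL6, and 1 of 48 higher and 1 lower in SUDHL16 (3 and 1 without CE-26). Around ITGAL it was 4 higher and 1 lower of 67 in SUDHL6, and 1 and 1 of 68 in SUDHL16 (3 and 2 of 70 without CE-26). Around ITGA3 it was 3 and 0 of 25 in SUDHL6, and 1 and 0 of 27 in SUDHL16 (1 and 1 without CE-26). Of these, 12 of 25 in SUDHL6 and 6 of 27 in SUDHL16 had a log2 fold change above 0. Over all genes tested, of any type, it was 8330 of 16662 and 7717 of 15708, while the neighbours counted are protein-coding only. Around ITGB2, 1 of 17 was called higher and 2 lower in SUDHL6, and none of 16 in SUDHL16 (1 higher without CE-26). Around ITGB7, 21 of 28 had a log2 fold change above 0 in SUDHL6, with 3 called higher and none lower, and in SUDHL16 it was 13 of 22 with no call (2 higher of 23 without CE-26). The shares called over all genes are those given above, and they too are over genes of any type. In SUDHL16 the median log2 fold change was 0.17 around CEACAM1, -0.12 around ICAM1, -0.0042 around ITGAL and -0.32 around ITGA3, beside 0.042 over all protein-coding genes tested.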

How the data were processed

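RNA-sequencing of 12 libraries, 3 in each of 4 groups, was analysed. Per the labels and the study's methods, the authors trimmed reads with Trim Galore, aligned them to GRCh38 with HISAT2 and assembled transcripts with StringTie, and they deposited whole-number counts per Ensembl gene, not normalized. The tool, annotation and strand setting of the counting are not given in the sources used here. Symbols and positions came from GENCODE release 44, which matched 56558 of the 60675 identifiers. Total counts per library ranged from 4131927 to 40885665, and the depth behind each low level is given as counts.

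Each line was fitted alone in edgeR 4.0.16 (R 4.3.3) with filterByExpr, TMM scaling and the two-sided quasi-likelihood test on the counts as deposited. A call needed an adjusted p (Benjamini-Hochberg) under 0.05 and a fold of 1.5 or more. The lines were compared by the interaction term of a joint fit to the 12 libraries, at an adjusted p under 0.05. Ratios of low counts have exact 95% intervals, and where a group or library had no counts, 3 counts were taken as its limit.

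The members and the lists were chosen with earlier results of these data known. All members are named. Of the B-cell markers, 1 is not reported here. From each of 7 lists up to 4 called genes per line are named, those that changed most, if one group averaged 5 CPM or more and the groups did not overlap. Alternatives were DESeq2 1.42.0, upper-quartile scaling, library totals, no filter, protein-coding genes only, voom with quality weights (limma 3.58.1), one fit of all 12 libraries and leaving out each library. Leaving out CE-26 from the list, neighbour and overlap counts, and the canonical transcript length, were chosen after seeing the data.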

Additional observations from a re-analysis of the deposited data

Results flagged for a closer look

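For 6 of the 10 genes the change with resistance differed between the lines by the interaction test (edgeR, adjusted over 19621 genes, of which 7.16% passed), given as the log2 fold change in SUDHL16 minus that in SUDHL6. ICAM1 differed by 2.72, falling in SUDHL6 and rising in SUDHL16. CEACAM1 differed by 2.94, rising in both. ITGB2 differed by 1.496, with the level below 1.3 CPM in every SUDHL6 library. ITGAL differed by -2.11 and ITGB7 by -1.16, both with higher values in SUDHL6-resistant and lower values in SUDHL16-resistant than in their parental libraries. ITGA3 differed by -7.46, a fitted value that rests on 2 counts in SUDHL16-resistant. The calls on ITGB2 and ITGB7 were lost in 10 and 12 of 14 alternative settings. All of these settings give both lines the same spread, which differed when each line was fitted alone.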

How the results depend on the processing

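No paired analysis was possible because the labels give no replicate numbers. In SUDHL6 the 4 members called became 0 in one fit of all 12 libraries, where 140 genes in place of 1493 were called, and 2 to 4 when 1 library was left out (1369 to 1462 genes). In SUDHL16 the 4 became 1 to 5 when 1 library was left out. The genes called there, 833, became 279 to 1636 when 1 library was left out, 1775 with DESeq2, 2648 with voom and 2855 in one fit of all 12 libraries. For the difference between the lines, 1404 genes became 841 without the filter and 830 to 2930 when 1 library was left out, and the 6 members 4 to 6. CD44 changed sign in SUDHL6 with voom (-0.032) and when 1 library was left out (-0.17 to 0.33), and in SUDHL16 with voom (2.74) and when 1 library was left out (-2.99 to 6.31). The difference between the lines changed sign on leaving out 1 library for ITGAX (-1.12 to 4.55) and CD44 (-2.67 to 6.75). For ITGAX that library was CE-8, which held the only 2 SUDHL6-parental counts of the gene. For CD44 it was CE-26, which held all 25 SUDHL16-parental counts. The cause was not tested. Of the other values for single genes under an alternative, 337 kept direction and side of the threshold, 40 were no longer past it and 2 were newly past it. Within a line that threshold includes the 1.5-fold limit. ITGAL, ITGB7 and ITGA4 in SUDHL6, under that limit throughout, therefore count as kept. In one fit of all 12 libraries, though, their adjusted p was no longer under 0.05 (ITGB7, edgeR adjusted p = 0.72). CEACAM1 kept its call in SUDHL16 under all 13 alternatives, and ITGAL lost it in 6. Depth limits ITGA3, ITGAX, CD44 and, in SUDHL6, ITGB2, whose levels rest on few counts.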
